A study of Homo sapiens with 6 samples.

Results

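The 9 genes RRM1, RRM2, TYMS, DUT, DCTD, DTYMK, TK1, TK2 and DCK encode enzymes that make the building blocks of DNA, and their transcripts were followed in SaOS-2 cells with p21 switched off or on. They were chosen by gene symbol, and all 9 were found among the 23228 gene names of the deposited table. SaOS-2 is an osteosarcoma cell line that lacks functional RB, a repressor of cell cycle genes, and the study describes it as null for p53 too. All libraries came from the line SaOS2-p21, which carries a Tet-inducible p21 vector. The 3 p21 OFF libraries came from untreated cells and the 3 p21 ON libraries from cells given 1 μg/ml doxycycline for 24 h, so the drug and the induced p21 cannot be told apart. The labels number the libraries without naming separate cultures, so p-values measure the spread between these libraries, and whether the line is a single clone is not given in the sources used here. The table holds normalized counts, the reads on a gene divided by a size factor of its library.

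DNA polymerases need all 4 deoxynucleoside triphosphates (dNTPs), and cells make them along a reductive and a salvage route. Ribonucleotide reductase, a complex of the large subunit RRM1 and a small subunit, turns ribonucleotides into deoxyribonucleotides. Thymidylate is made by TYMS from deoxyuridylate, which DUT and DCTD supply, and the kinase DTYMK carries it on towards the triphosphate. The kinases TK1, TK2 and DCK phosphorylate deoxynucleosides taken up or released by the cell, TK1 and DCK in the cytosol and nucleus and TK2 in mitochondria. Several of these enzymes, RRM2 and TK1 above all, are known for transcripts and proteins that rise when cells replicate their DNA, while TK2 and the small subunit RRM2B also serve resting cells.

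Promoters of cell cycle genes commonly hold CCAAT boxes, E2F sites or a cell cycle genes homology region (CHR), and these motifs were searched for in the members' promoters. A RefSeq table of promoter windows, each from 250 bases before to 50 bases from the transcription start, gave 15 windows for the 9 members, and every one matched the GRCh37 genome (the build of hg19) at a single place. The window nearest to the start of the canonical GENCODE transcript was used for each gene, which lay at that start for 8 members and 114 bases from it for RRM1. The search covered both strands for CCAAT, for TTTGAA and TTCGAA (CHR) and for TTTGGCGC, TTTCGCGC, TTTCCCGC and TTTGCCGC (E2F), and none of these motifs overlapped another in the windows used. The 150 bases before the start are shown for the 4 members whose transcripts fell and whose windows hold a CCAAT box, and for TYMS, whose transcript did not pass the test and whose window holds an E2F motif. They are written 5′ to 3′ on the strand of the gene, with motif matches in capitals (ATTGG is CCAAT and GCGGGAAA is TTTCCCGC read on the other strand).
RRM2, plus strand, chr2:10262716-10262865: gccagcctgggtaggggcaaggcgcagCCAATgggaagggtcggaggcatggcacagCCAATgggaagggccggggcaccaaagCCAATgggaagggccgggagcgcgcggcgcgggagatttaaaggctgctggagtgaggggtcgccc
TK1, minus strand, chr17:76183134-76183283: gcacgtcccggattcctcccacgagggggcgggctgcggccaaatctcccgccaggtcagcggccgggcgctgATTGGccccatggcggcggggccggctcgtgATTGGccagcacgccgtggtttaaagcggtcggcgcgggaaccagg
DTYMK, minus strand, chr2:242626231-242626380: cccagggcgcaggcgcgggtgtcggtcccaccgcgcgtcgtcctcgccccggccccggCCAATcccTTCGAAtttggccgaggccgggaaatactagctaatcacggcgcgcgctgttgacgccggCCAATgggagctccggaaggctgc
RRM1, plus strand, chr11:4115765-4115914: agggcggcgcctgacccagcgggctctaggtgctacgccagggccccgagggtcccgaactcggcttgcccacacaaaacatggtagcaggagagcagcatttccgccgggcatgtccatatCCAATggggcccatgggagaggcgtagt
TYMS, plus strand, chr18:657503-657652: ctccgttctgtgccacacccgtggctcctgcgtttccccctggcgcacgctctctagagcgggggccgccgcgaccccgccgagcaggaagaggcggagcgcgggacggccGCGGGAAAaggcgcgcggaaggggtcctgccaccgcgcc

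RRM2 had 3 CCAAT boxes, starting at positions -123, -93 and -66 from the transcription start. TK1 had 2, at -77 and -46, both on the other strand. DTYMK had 2, at -92 and -24, with the CHR motif TTCGAA at -84 between them. RRM1 had 1 CCAAT box at -28 and a TTTGAA motif further upstream, at -199. The windows of TYMS and DCK each held 1 E2F motif and no CCAAT box, and those of DUT, DCTD and TK2 held none of the motifs. A separate DUT window, whose transcription start lies 768 bases from the canonical start, held 2 E2F motifs and 2 CHR motifs. Another RRM2 window, 171 bases from the canonical start, held 1 CCAAT box. Another TK1 window, 152 bases from it, held none of the motifs, so these counts depend on the start chosen. The remaining windows of DUT and DCTD held none. Of all 35116 windows in the RefSeq table, 34.6% held at least 1 CCAAT box, 10.8% at least 2 and 3.26% at least 3. Any CHR motif was in 16.4% and any E2F motif in 3.31%. Taken singly, the CHR motif TTTGAA was in 15.2% and TTCGAA, that of DTYMK, in 1.45%. The E2F motif TTTCCCGC of TYMS was in 1.63%, and TTTGGCGC of DCK in 0.652%. A match says only that the letters are present, and binding was not measured. Only exact copies of the listed motifs were searched for, so a window without a match can still hold a variant of a site.

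**Figure D1:**
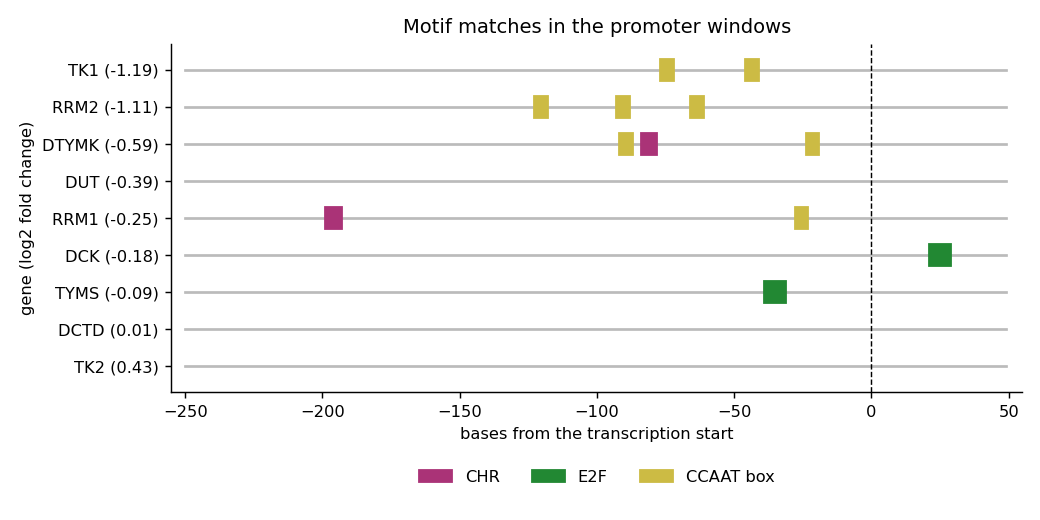
Positions of motif matches in the promoter window of each member nearest to its canonical start; the x axis gives bases from the transcription start (dashed line), and genes are ordered by their log2 change, in parentheses. The 3 genes with the lowest values, TK1, RRM2 and DTYMK, have 2 or 3 CCAAT boxes each in these windows. Another window of RRM2 holds 1, and another window of TK1 holds none. DUT, whose transcript also fell, has no motif in the window used. Of all windows in the RefSeq table, 10.8% hold at least 2 CCAAT boxes. A link between motifs and changes was not tested.

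Recovered read numbers on genes ranged from 12795490 to 21975045 per library. CDKN1A, the gene of p21, went from 1266 ± 84.5 to 43691 ± 3138 normalized counts (SD, 3 libraries each), which checked the labels. RB1, whose transcript level says nothing about the protein, was at 497 to 697 normalized counts in the 6 libraries. Of 8 osteoblast lineage markers, 6 had a mean of at least 10 normalized counts, with RUNX2, SP7 and ALPL among them, while SPP1 stayed between 0 and 2.96 and BGLAP was at 0. IBSP, a bone matrix protein gene of that list, was called lower at -0.38 (limma adjusted p = 0.0264). Of 10 markers of other cell types, 4 had a mean of at least 10, with sums over the list of 394 to 461 in p21 OFF and 407 to 447 in p21 ON libraries, most of it EPCAM at 292 to 374. VWF, an endothelial gene of the second list, was called higher, from 53.6 ± 2.0 to 77.2 ± 14.2 normalized counts (SD, 3 libraries each). The part of these markers in the results was not tested.

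After p21 induction, 5 of the 9 transcripts fell and none rose. TK1 and RRM2 were each reduced to less than 0.5 times their p21 OFF level, DTYMK, DUT and RRM1 fell by smaller amounts, and TYMS, DCK, DCTD and TK2 did not pass the test. The test was limma on log2(normalized count + 1) of the 13255 genes averaging 10 or more, called at an adjusted p-value under 0.05, and all 9 members passed that filter. Across all genes tested, 12.7% were called lower and 10.5% higher, against 55.6% and 0% of the members. The members were chosen with earlier results of these data known, so these shares describe them and are no test. The median log2 change (log2 fold change, p21 ON minus p21 OFF) was -0.25 over the members and 0.01 over all genes. For 6 members the highest p21 ON library was lower than the lowest p21 OFF library (21.3% of all genes tested), and for 1, TK2, the reverse held (19.1% of all genes tested). In bulk RNA, fewer cells in a phase that makes a transcript and less of it per cell cannot be told apart.

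**Figure D2:**
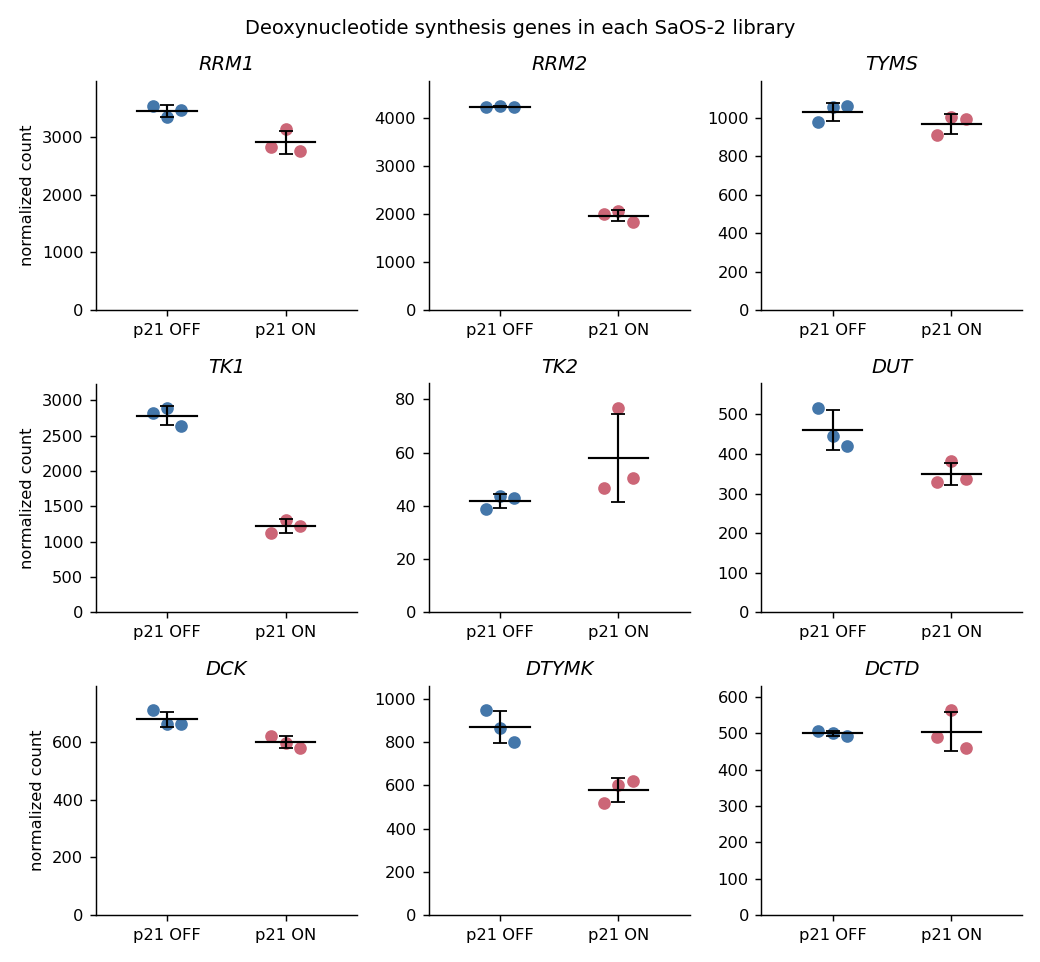
Normalized counts of the 9 members, 1 point per library, with the mean and SD of each group (n = 3; y axes start at 0). RRM2 lay at 4214 to 4253 in p21 OFF and at 1839 to 2057 in p21 ON libraries, whereas the groups of TYMS and DCTD overlapped.

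The 2 partners of ribonucleotide reductase fell by very different amounts. RRM2, the small subunit that is made and destroyed with the cell cycle, had 4230, 4253 and 4214 normalized counts before induction (p21 OFF) and 1997, 2057 and 1839 after it (p21 ON). The p21 OFF libraries were tightly grouped and stood more than 2 times as high as every p21 ON library. The log2 change was -1.11 (standard error 0.06, limma adjusted p = 1.75e-10), a fold change of 0.464 with a 95% interval from 0.425 to 0.506, and it was the 121st lowest of the 13255 genes.

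RRM1, the large subunit that carries the catalytic site, had 3555, 3353 and 3473 normalized counts with p21 OFF and 2838, 3146 and 2759 with p21 ON. The groups did not overlap, but the nearest libraries, p21 ON replicate 2 and p21 OFF replicate 2, were close. Its log2 change was -0.25 (standard error 0.06, limma adjusted p = 0.00849), a fold change of 0.841 with a 95% interval from 0.768 to 0.922. Without p21 ON replicate 1 the value was -0.23 and the adjusted p from limma 0.058, and without p21 ON replicate 3 they were -0.21 and 0.059, so the call of RRM1 was lost in both cases. RRM1 was called lower in the other 16 of 18 alternative analyses.

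The ratio of RRM2 to RRM1 within a library does not depend on how libraries are scaled. It was 1.22 ± 0.04 (SD, n = 3) in p21 OFF and 0.675 ± 0.026 (SD, n = 3) in p21 ON libraries, so RRM2 reads outnumbered RRM1 reads before induction and RRM1 reads outnumbered RRM2 reads after it. This is a ratio of reads, and which transcript was the more abundant depends on the lengths assumed. On the log2 scale the ratio changed by -0.86, and no p21 ON library overlapped a p21 OFF library (two-sided exact permutation p = 0.1, the floor for 3 libraries against 3). Corrected for the lengths of the canonical transcripts, the ratio was 1.18 ± 0.04 with p21 OFF and 0.651 ± 0.025 with p21 ON (SD, 3 libraries each). With the length of all annotated exons it was 0.566 ± 0.019 and 0.312 ± 0.012 (SD, 3 libraries each), below 1 in both groups.

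RRM2B, the alternative small subunit that supplies dNTPs outside S phase, had 443, 387 and 438 normalized counts with p21 OFF and 452, 476 and 398 with p21 ON. The groups overlapped, and the log2 change of 0.06 had a 95% interval from -0.12 to 0.25 (limma adjusted p = 0.643). The ratio of RRM2 reads to RRM2B reads went from 10.0 ± 0.81 to 4.45 ± 0.15 (SD, 3 libraries each), a log2 change of -1.17 (two-sided exact permutation p = 0.1, again the floor). Per kilobase, the mean ratio of RRM2 to RRM2B with p21 ON was 6.52 with canonical transcripts and 2.62 with all annotated exons. Each of the 3 ratios tested, the third being TK1 to TK2, gave this p, and Benjamini-Hochberg adjustment over them left it at 0.1.

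**Figure D3:**
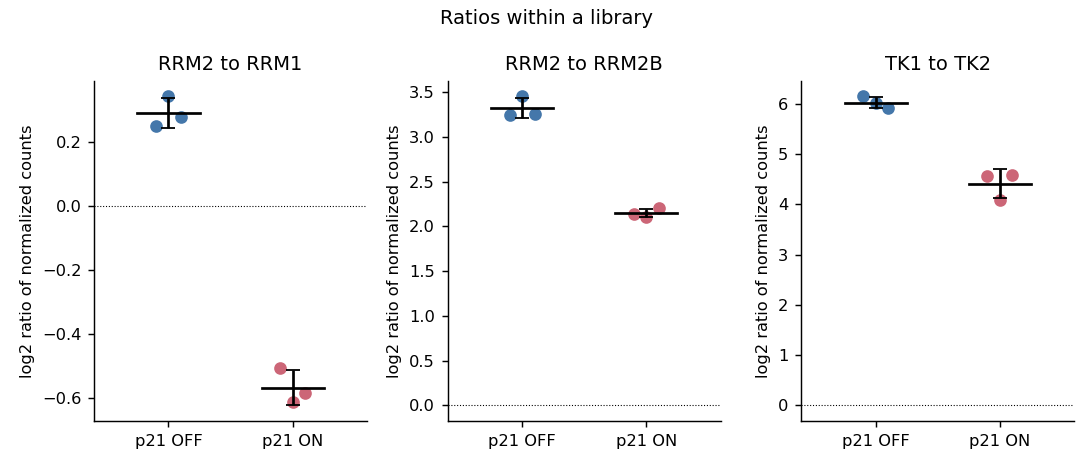
Log2 ratios of normalized counts within each library (points), with mean and SD (n = 3 per group), for RRM2 to RRM1, RRM2 to RRM2B and TK1 to TK2. The RRM2 to RRM1 ratio lay between 0.25 and 0.34 with p21 OFF and between -0.61 and -0.51 with p21 ON, crossing 0.

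On the thymidylate route, the kinase and the dUTPase fell, while the synthase itself was not called. DTYMK, the kinase that phosphorylates thymidylate whether it comes from TYMS or from TK1, had 947, 868 and 799 normalized counts with p21 OFF and 517, 603 and 621 with p21 ON. Every p21 ON library lay below every p21 OFF library, although replicates of a group differed from each other more than those of RRM2. The log2 change was -0.59 (standard error 0.08, limma adjusted p = 7.06e-05), a fold change of 0.666 with a 95% interval from 0.589 to 0.752.

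DUT, which hydrolyses dUTP and so keeps uracil out of DNA while yielding the substrate of TYMS, had 516, 445 and 419 normalized counts with p21 OFF and 329, 381 and 337 with p21 ON. The highest value was that of p21 OFF replicate 1, and the groups did not overlap without it either. The log2 change was -0.39 (standard error 0.09, limma adjusted p = 0.00553), and with each library left out in turn it stayed between -0.46 and -0.31 and was called lower each time. The annotation holds 8 pseudogenes named after DUT, 3 named after RRM2 and 2 named after TYMS. How reads shared with such copies were counted is not given in the sources used here.

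TYMS, which methylates deoxyuridylate to thymidylate, had 980, 1055 and 1064 normalized counts with p21 OFF and 909, 1004 and 995 with p21 ON. The groups overlapped, since p21 ON replicates 2 and 3 lay above p21 OFF replicate 1. The log2 change of -0.09 (limma adjusted p = 0.346) had a 95% interval from -0.24 to 0.05, so a fall to less than 0.849 times the p21 OFF level lay outside it. Exons of TYMS overlap those of 2 genes on the opposite strand, ENOSF1 by 967 bp and TYMSOS by 193 bp. ENOSF1 had a log2 change of 0.09 (limma adjusted p = 0.406), and TYMSOS, named C18orf56 in the table, was at 7.6 to 16.3 normalized counts. The libraries were stranded, but the strand setting of the counting is not given in the sources used here. The same limit touches DUT, whose exons overlap DUT-AS1 by 533 bp, and RRM1, which overlaps RRM1-AS1 by 63 bp, both on the opposite strand, while DCK shares 199 bp with MOB1B on its own strand.

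DCTD deaminates deoxycytidylate to deoxyuridylate, the other source of substrate for TYMS. It had 507, 501 and 492 normalized counts with p21 OFF and 491, 563 and 460 with p21 ON. The p21 ON libraries lay on both sides of the p21 OFF libraries. The log2 change was 0.01, with a 95% interval from -0.17 to 0.18 (limma adjusted p = 0.952).

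Among the salvage kinases TK1 stood apart. TK1, the cytosolic thymidine kinase of cycling cells, had 2819, 2889 and 2640 normalized counts with p21 OFF and 1126, 1312 and 1228 with p21 ON. Even the highest p21 ON library was less than 0.5 times as high as the lowest p21 OFF library. Its log2 change of -1.19 (standard error 0.07, limma adjusted p = 2.86e-10) was the lowest of the 9 members and the 96th lowest of all genes tested. The fold change was 0.439, with a 95% interval from 0.398 to 0.484.

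TK2, the mitochondrial kinase for thymidine and deoxycytidine, was rare, with 38.9, 43.7 and 42.9 normalized counts with p21 OFF and 46.6, 76.8 and 50.4 with p21 ON. These values rest on 31 to 63 reads per library. All p21 ON libraries lay above the p21 OFF libraries, but p21 ON replicate 2 was far higher than the other two. The log2 change of 0.43 (standard error 0.19, limma adjusted p = 0.12) was not called, and without p21 ON replicate 2 it was 0.21 (limma adjusted p = 0.459). The ratio of TK1 reads to TK2 reads, not corrected for length, went from 66.7 ± 5.4 to 21.9 ± 4.1 (SD, 3 libraries each), a log2 change of -1.61 (two-sided exact permutation p = 0.1, again the floor). Exons of TK2 overlap 3 annotated genes, 2 of them on the opposite strand.

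DCK phosphorylates deoxycytidine, deoxyadenosine and deoxyguanosine and activates several nucleoside drugs. It had 711, 666 and 665 normalized counts in p21 OFF and 623, 598 and 581 in p21 ON libraries. The groups did not overlap, but the difference was small. The log2 change was -0.18 (standard error 0.07, limma adjusted p = 0.0743), with a 95% interval from -0.33 to -0.03 before adjustment, and DCK was not called in any of 18 alternative analyses, whose adjusted p-values ran from 0.0602 to 0.195.

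**Figure D4:**
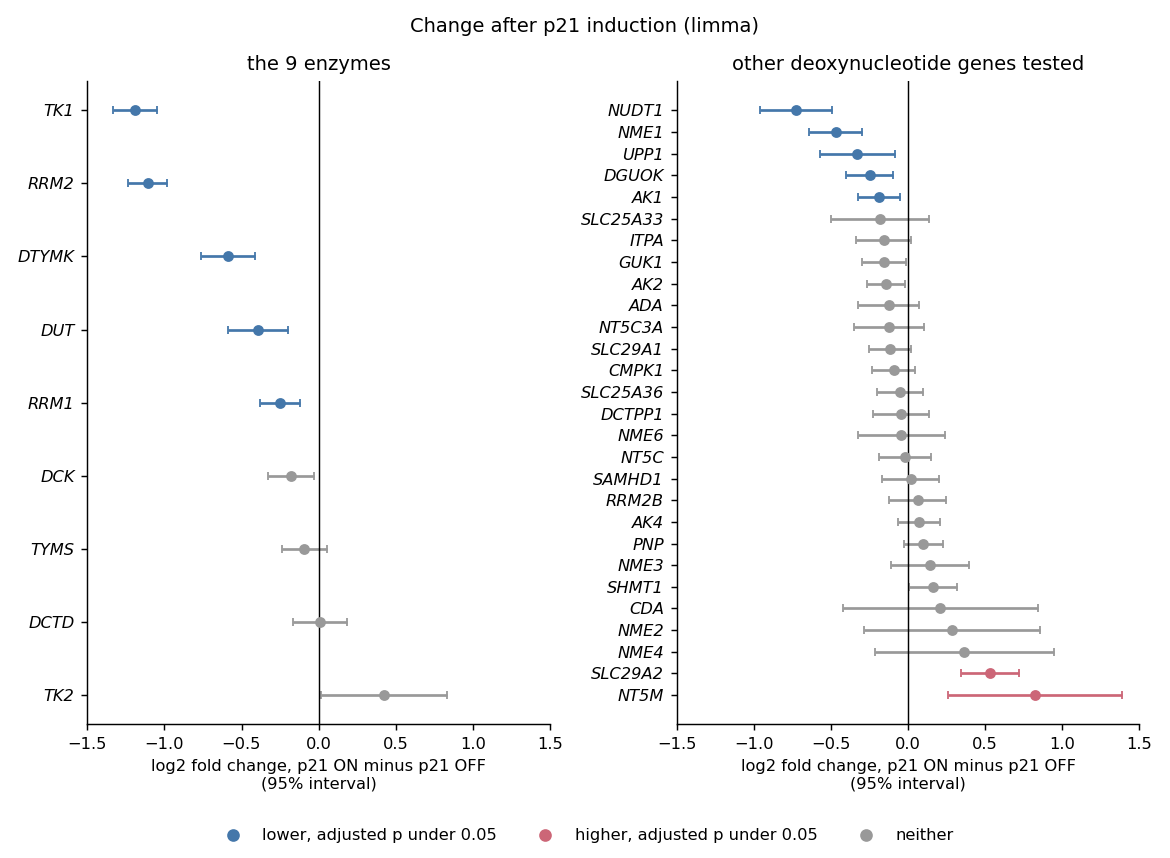
Log2 fold changes (p21 ON minus p21 OFF) with 95% intervals from limma, for the 9 members on the left and 28 of the 30 other deoxynucleotide genes tested on the right; colours give the call at an adjusted p-value under 0.05. TK1 and RRM2 lie at -1.19 and -1.11, below every gene of the right panel, where NUDT1 is lowest at -0.73.

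Transcript length moved with the changes. Across the 12558 genes tested that had a transcript length, the log2 change was higher for longer transcripts (Spearman 0.36 across genes, which are no independent replicates), and the canonical transcripts of DTYMK (1051 bases) and TK1 (1431 bases) are the shortest among the members. With the trend of length taken out of each library, an alternative chosen after the data were seen, the log2 changes were -1.11 for RRM2, -1.08 for TK1, -0.44 for DTYMK, -0.34 for DUT and -0.25 for RRM1. All 5 were still called lower.

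To order the levels of the 9 members, normalized counts were divided by the kilobases of the canonical transcript. In p21 OFF cells TK1 was highest, at 1945 ± 89.6 (SD, n = 3) per kilobase, followed by RRM2 at 1299 ± 5.95, RRM1 at 1101 ± 32.3, DTYMK at 829 ± 70.4 and TYMS at 640 ± 28.9. DCK at 272 ± 10.5 and DCTD at 259 ± 4.13 were neighbours whose difference was close to their spread, DUT followed at 215 ± 23.5, and TK2 was last at 8.68 ± 0.53. With p21 ON the order changed at the top. RRM1 at 928 ± 65.1 and TK1 at 854 ± 65.3 then differed by about their spread, and RRM2 at 603 ± 34.6, TYMS at 601 ± 32.4 and DTYMK at 552 ± 52.8 could not be separated. These levels depend on the transcript chosen, since with the length of all annotated exons RRM2 would rank 3 with p21 OFF and 5 with p21 ON.

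**Figure D5:**
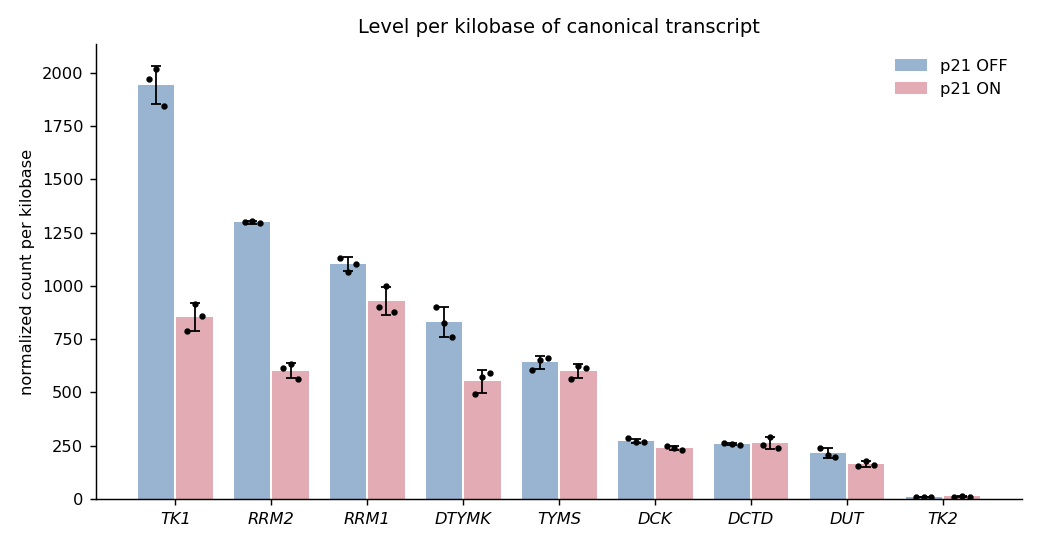
Normalized counts per kilobase of canonical transcript for the 9 members, ordered by their p21 OFF level; bars are means, error bars SD and points single libraries (n = 3 per group). TK1 falls from 1945 to 854 per kilobase, and TK2 is at 8.68 and 12.

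By the gene lists of the study, taken from its supplement and based on earlier cell cycle data sets, RRM1, RRM2, TK1, DUT and DCK are low-stringency G1/S genes and DTYMK is a low-stringency G2/M gene, while TYMS, TK2 and DCTD are in neither list as read here. The copies read held 572 G1/S and 432 G2/M genes of low stringency. These are slightly fewer than the study states, as are the 60 G1/S and 103 G2/M genes read for high stringency. The reason was not examined, so absence from a list holds only for the copies read. The 5 listed G1/S genes had log2 changes from -1.19 for TK1 to -0.18 for DCK, and DCK was not called. None of the 9 is in the high-stringency lists as read here.

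The other genes of deoxynucleotide metabolism were followed on 6 lists. Of their 32 genes, 30 passed the filter, and 7 of them (23.3%) were called lower and 2 (6.67%) higher, beside 12.7% and 10.5% of all genes. Their median log2 change was -0.07.

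Among enzymes that clear damaged or surplus nucleotides, the lowest log2 change was that of NUDT1. This enzyme, also called MTH1, which removes oxidized purine triphosphates, went from 348 ± 36.3 to 211 ± 32.7 normalized counts (SD, 3 libraries each), a log2 change of -0.73 (limma adjusted p = 0.000156). It was called lower in all 18 alternative analyses. UPP1, a uridine phosphorylase, had a log2 change of -0.33 (limma adjusted p = 0.0482) and was no longer called when any library but p21 OFF replicate 3 was left out, with values from -0.41 to -0.23 in those 5 fits. It was called in 7 of 18 alternative analyses, and not by edgeR (adjusted p = 0.0653), DESeq2 (adjusted p = 0.101) or after library size scaling. NT5M, a mitochondrial deoxynucleotidase, was called higher at 0.82 (limma adjusted p = 0.0334) from only 12 to 24 reads per library, and its call was lost without p21 OFF replicate 3 (0.64) and without any one of p21 ON replicates 1 (0.84), 2 (0.74) and 3 (0.89), as well as with DESeq2 (adjusted p = 0.105). SAMHD1, which breaks down dNTPs, had 302 ± 20.8 and 305 ± 11.7 normalized counts (SD, 3 libraries each), and its log2 change of 0.02 had a 95% interval from -0.17 to 0.20.

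Of 10 other nucleotide kinases tested, 2 were called lower. NME1, a nucleoside diphosphate kinase that makes triphosphates, went from 1830 ± 242 to 1316 ± 78.0 normalized counts (SD, 3 libraries each), a log2 change of -0.47 (limma adjusted p = 0.000549). NME1 was called lower in all 18 alternative analyses. Its near-identical neighbour NME2, at 15.1 to 36.1 normalized counts, can share reads with it. How such reads were counted was not examined, so the value of NME1 remains uncertain. AK1, an adenylate kinase, was called at -0.19 (limma adjusted p = 0.0476) but in only 7 of 18 alternative analyses, not by edgeR (adjusted p = 0.0531), DESeq2 (adjusted p = 0.0611) or after library size scaling (-0.14), and not without p21 OFF replicate 1 (-0.12) or any one of p21 ON replicates 1 (-0.18), 2 (-0.18) and 3 (-0.21).

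DGUOK, the mitochondrial deoxyguanosine kinase and counterpart of TK2, was called lower at -0.25 (limma adjusted p = 0.0206). The call was lost without p21 ON replicate 1 (-0.22) or p21 ON replicate 3 (-0.27) and after library size scaling (-0.20), and with the length trend taken out the value was -0.10. Of 4 carriers, SLC29A2, an equilibrative nucleoside transporter, rose from 206 ± 10.2 to 298 ± 11.1 normalized counts (SD, 3 libraries each), a log2 change of 0.53 (limma adjusted p = 0.000449). It was called higher in all 18 alternative analyses, while its relative SLC29A1 had a log2 change of -0.11 (limma adjusted p = 0.205).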

How the data were processed

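Polyadenylated RNA of 6 SaOS-2 libraries, 3 per group, was analysed. The authors prepared stranded libraries, used STAR (hg19) for single-end reads and HTSeq for counts per gene name, and divided the counts by DESeq2 size factors (tools and build per the labels' processing notes and the methods; versions are not given). The deposited values are therefore a signal, normalized counts per gene and library. Divided by the smallest step of its library, 100% of values came out whole (tolerance 0.01 reads), which gave back the reads, 12795490 to 21975045 per library. No value column was left unassigned.

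limma 3.58.1 (R 4.3.3; lmFit, eBayes with a trend, no covariates) was run on log2(normalized count + 1), so fold changes of low genes are understated, for the 13255 genes averaging 10 or more, all of which entered the Benjamini-Hochberg adjustment. The alternatives were edgeR 4.0.16 (1401 genes higher, 1647 lower) and DESeq2 1.42.0 on the recovered reads, other scalings, pseudocounts of 0.1 and 10, other filters, an adjusted p-value under 0.01, a replicate block, each library left out, and removal of a length or GC trend. The last 2 were chosen after the data were seen. Ratios used SciPy 1.17.1. Only the limma fit was tested on simulated data, and the outcome is not reported here. Positions are from GENCODE release 44 on GRCh37, and promoter sequences from RefSeq.

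The members, lists and motifs were chosen with earlier results of these data known. All members are named. Of the other lists, at most 3 called genes with the largest changes in each direction are named, with RRM2B, DGUOK, SAMHD1, genes overlapping TYMS, checks of the line and the 5 genes most like TK1. Some genes that this rule names are not reported here. SLC29A1 was named after its value was seen. NT5C3A and CTPS1 were matched by older symbols. The KEN box search planned on protein sequences was not run.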

Additional observations from a re-analysis of the deposited data

How the results depend on the processing

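The 5 members called lower were called lower in every alternative over all libraries, and their number was 4 to 5, with 0 higher, when libraries were left out. Of the comparisons of a member with an alternative, 155 kept direction and call, 2 lost the call (RRM1) and 5 turned the sign of members that were never called: DCTD to -0.000972 under TMM scaling, to -0.00322 without p21 OFF replicate 3, to -0.0724 without p21 ON replicate 2 and to -0.000279 with the GC trend removed, and TYMS to 0.00265 with the length trend removed. With libraries left out in turn, DCTD ran from -0.0724 to 0.0731. All 24 alternative values of the ratios kept their direction.

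Library size scaling, which moved the median log2 change of all genes from 0.01 to 0.05, gave 6 other pathway genes higher and 7 lower in place of 3 and 11, and 2034 genes higher and 1194 lower in place of 1393 and 1681. An adjusted p-value under 0.01 left 616 genes higher and 882 lower, and 1 and 5 other pathway genes. With the length trend removed, 6 other pathway genes were higher. With libraries left out, 695 to 1486 genes were higher and 887 to 1660 lower, and 1 to 5 other pathway genes higher and 5 to 12 lower. The counts were 695, 887, 1 and 5 without p21 ON replicate 1 and 739, 1077, 1 and 8 without p21 ON replicate 3, and 5 other pathway genes were higher without p21 OFF replicate 1. The causes were not tested. Same-numbered deviations correlated at -0.057, -0.025 and -0.048, so no effect shared by replicate number was seen. With 3 libraries per group, this cannot show whether same-numbered libraries were prepared together. The replicate block gave 1407 genes higher and 1513 lower and changed no call of a member. Depth limits the values of TK2 and NT5M, which rest on few reads.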

Other observations

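The ribonucleotide routes that feed ribonucleotide reductase were described with 22 genes, all of which passed the filter. Of these, 4 (18.2%) were called lower and 1 (4.55%) higher, beside 12.7% and 10.5% of all genes tested, and their median log2 change was -0.04. CAD, which catalyses the first steps of pyrimidine synthesis, went from 4482 ± 358 to 5330 ± 346 normalized counts (SD, 3 libraries each), a log2 change of 0.25 (limma adjusted p = 0.0134), and lost its call without p21 ON replicate 1 or p21 ON replicate 3, at 0.22 each, or with the length trend removed. UMPS, the enzyme of the last steps of the same route, fell from 815 ± 34.2 to 662 ± 7.64 normalized counts (SD, 3 libraries each), a log2 change of -0.30 (limma adjusted p = 0.00463) that was called in all 18 alternative analyses. In the purine lists PFAS (-0.29), ADSL (-0.27) and APRT (-0.23) were called lower. Their calls were lost without p21 ON replicate 1 (-0.28, -0.23 and -0.18), and that of PFAS also without p21 OFF replicate 2 (-0.23). APRT was not called after library size scaling (-0.18) either, and with the length trend removed its log2 change was -0.06 (limma adjusted p = 0.462).

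Among 10441 other genes with a mean of at least 100, the 5 whose values over the 6 libraries correlated best with those of TK1 were TUBA1B, FTSJ3, CKS2, BIRC5 and DAZAP2, with Pearson correlations of 0.998 to 0.999. The 6 libraries fall into 2 groups that share the contrast, so 87 genes exceeded 0.99. The log2 changes of these 5 ran from -1.45 for BIRC5 to -0.16 for FTSJ3. RRM2 had a correlation of 0.991 with TK1 and ranked 75th.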
